A study of Mus musculus with 130 samples.

Results

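Liver RNA was compared between the BXD and the AXB/BXA families of recombinant inbred mice, all fed an iron-loaded diet. The members were chosen by strain label: 55 of the 56 BXD libraries and all 20 AXB/BXA libraries, 75 of the 130 libraries of the series. The remaining libraries belong to other strains of the same panel, 115 libraries in all, and to a separate diet study not used here. All mice were labelled male and received chow for 4 weeks and then 2% carbonyl iron (20000 ppm) for 6 weeks, and no strain on a low-iron diet was compared here. Age and batch are not given in the sources used here, so unrecorded handling and family cannot be told apart. The mouse numbers in the labels were unevenly spread, the lowest of those compared belonging mostly to AXB/BXA strains. Mouse number and family are therefore partly confounded, also in the fit that uses the number as a covariate. Each strain of both families was represented by 1 mouse, so the strain was the replicate and the p-values measure the spread between strains. The library labelled BXD65 was left out by the selection rule. Its summed level of 4 Y-linked genes was 3.90 CPM (counts scaled to the TMM-normalized library total), against 131 to 237 CPM in the 75 libraries compared. This level goes against its label as male.

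BXD strains descend from C57BL/6J and DBA/2J, and AXB and BXA strains from A/J and C57BL/6J. Each strain is a fixed mosaic of its parental genomes, so a variant that separates DBA/2J from A/J segregates within a family and can shift the family mean. Hepatocytes make hepcidin, the hormone that closes the iron exporter ferroportin, and its transcription responds to iron through BMP ligands and SMAD proteins. The BXD set held 27 strains of the older series, with the suffix Ty, and 28 of the later Rww series. Among the Ty strains, BXD24 is labelled BXD24/TyJ-Cep290<rd16>/J, which names a mutant allele of Cep290. The other family held 10 AXB and 10 BXA strains, which come from reciprocal crosses. AXB19, AXB19a and AXB19b are near-copies of each other, as are BXD48 and BXD48a. Across genes, deviations from the mean of all 75 strains compared correlated at 0.260 to 0.451 between these near-copies. The median over all 2775 pairs was -0.016. Those pairs lie within and between families, so part of the near-copy correlation can come from family.

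Total counts ran from 9.41 to 20.6 M in BXD (median 12.5), where M stands for 1000000 counts, and from 10.4 to 14.9 M in AXB/BXA (median 12.4). The means differed by 0.596 M (two-sided permutation p = 0.140). The summed CPM of 10 hepatocyte genes ran from 80475 to 156344 in BXD and from 90907 to 147043 in AXB/BXA, so every library carried the labelled tissue's markers. No library stood clearly apart, the lowest median correlation with the others being 0.923 in BXD27.

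Of 13789 genes tested with edgeR's quasi-likelihood test and Benjamini-Hochberg adjustment, 1593 (11.6%) had an adjusted p under 0.05 and are termed called. Higher expression in BXD was called for 904 genes (6.56%) and lower expression for 689 (5%). The near-copy strains entered this fit as separate replicates. With near-copies counted once 1298 genes were called (9.4% of those tested), 1238 of them among the 1593. Of all 13789 genes tested, DESeq2 called 12.7% and limma on log2(TPM + 1) 6.56%, and 3445 had an unadjusted p under 0.05 by edgeR. List counts by these criteria below are to be read beside these shares. Most differences were small, with a median absolute log2 difference of 0.34 among called genes. Larger than 2-fold were 204, 160 higher in BXD and 44 lower. In 0 of the 13789 genes did all 55 BXD strains lie beyond the AXB/BXA range. The comparison was repeated in 10 other settings that drew on both families, termed whole-family settings. It was also repeated in 75 fits that each left out 1 strain. The settings include DESeq2, limma on log2 TPM and near-copies counted once, so test, measure and strains are not all the same. Limma on log2(TPM + 1) alone kept 835 of the 1593 calls. A call made in all settings and fits in which the gene was tested is termed stable, which held for 640 of the 1593. Log2 differences are BXD minus AXB/BXA and compare mean levels, so a few strains at a high level can carry them. Levels are CPM and do not account for transcript length.

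Among single genes called higher, the most complete separation was in Rsph3b (chromosome 17, GRCm38 6904413 to 6948682), a radial spoke head gene. It ran from 30.99 to 225 CPM over BXD strains (median 92.9) and from 12.1 to 51.1 CPM over AXB/BXA strains (median 29.5). The log2 difference was 1.81 (SE 0.17, edgeR adjusted p = 1.02e-13), and 49 of 55 BXD strains exceeded the highest AXB/BXA strain. The gene for the calcium/calmodulin-dependent kinase subunit Camk2b (chromosome 11, 5969644 to 6066362) ran from 2.51 to 44.1 CPM in BXD (median 29.3) and from 0 to 17.4 CPM in AXB/BXA (median 1.004). Here 44 BXD strains exceeded the AXB/BXA maximum, for a log2 difference of 2.88 (SE 0.34, edgeR adjusted p = 9.40e-10). The single DBA/2J mouse stood at 29.3 CPM and the single A/J mouse at 0.352 CPM, with C57BL/6J between them at 9.82 CPM. Camk2b lies close to Nudcd3, a co-chaperone of dynein, which differed the other way by -0.51 (SE 0.05, edgeR adjusted p = 3.47e-13). Nudcd3 ran from 18.2 to 32.9 CPM in BXD (median 26.6) and from 28.1 to 48.1 CPM in AXB/BXA (median 39.95), with 39 BXD strains below the lowest AXB/BXA strain.

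Several large differences came from part of the BXD strains. Corin, the protease that activates atrial natriuretic peptide, ran from 0.257 to 39.95 CPM in BXD (median 21.1) and from 0.0997 to 5.42 CPM in AXB/BXA (median 1.20). Its level exceeded 10 CPM in 37 of 55 BXD strains, and all 37 lay above the AXB/BXA maximum, while the other BXD strains overlapped with AXB/BXA. The log2 difference was 3.43 (SE 0.52, edgeR adjusted p = 1.14e-06). DBA/2J had 25.8 CPM, against 1.22 in C57BL/6J and 3.26 in A/J. The same kind of distribution was seen for Ntrk2, the receptor of brain-derived neurotrophic factor. It ran from 0.335 to 42.8 CPM in BXD (median 6.93), with 25 strains above the AXB/BXA maximum of 7.26 CPM, and DBA/2J had 56.05 CPM. The VIP receptor gene Vipr2 reached at most 0.254 CPM in AXB/BXA (median 0) and exceeded that level in 30 BXD strains, up to 10.4 CPM. Log2 differences were 2.82 for Ntrk2 and 5.38 for Vipr2, the latter at counts near 0 in AXB/BXA.

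The remaining genes with the largest excess of the BXD median were Slc22a28, Vwa3b, Isoc2b, Slc7a15, Zbed5 and Eps8l1, with log2 differences from 1.28 for Isoc2b to 2.53 for Eps8l1. In each of them between 9 and 23 BXD strains lay above the AXB/BXA maximum, so the groups overlapped. Other genes were named for the share of strain pairs in which the BXD strain was the higher. The groups overlapped in these genes too. Crlf2, a subunit of the TSLP receptor, differed by 0.91 (SE 0.09), with 41 BXD strains above the AXB/BXA maximum. The endoplasmic reticulum co-chaperone gene Dnajc10 differed by 0.81 (SE 0.09), with 38 strains above. Cd209c, a C-type lectin gene, differed by 2.14 (SE 0.31), with 45 strains above. All 10 genes picked for an excess in the BXD median were stable calls, as were 8 of the 10 picked for a deficit, Ildr2 and Mup15 being the exceptions.

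On the lower side, Olfr1388, annotated as an olfactory receptor gene, had the most complete separation. It ran from 0 to 3.34 CPM in BXD (median 0.855) and from 1.44 to 19.8 CPM in AXB/BXA (median 4.99). Below the lowest AXB/BXA strain were 46 of 55 BXD strains, and the log2 difference was -3.05 (SE 0.21, edgeR adjusted p = 5.35e-20). A/J had 10.6 CPM, against 1.39 in C57BL/6J and 0.758 in DBA/2J. For Bglap3, related to osteocalcin, BXD strains stayed at 0.0735 to 2.15 CPM (median 0.412) while AXB/BXA strains ran from 0 to 24.98 CPM (median 11.1). The X-linked Prrg1, which encodes a membrane Gla protein, ran from 0.481 to 2.48 CPM in BXD (median 1.39) and from 1.28 to 14.2 CPM in AXB/BXA (median 7.02). In Bglap3 and Prrg1 the AXB/BXA strains themselves spread widely, and their lowest members overlapped with BXD. Log2 differences were -4.21 for Bglap3 and -2.23 for Prrg1, with edgeR adjusted p-values of 1.12e-16 and 1.15e-16.

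Ildr2, a membrane protein gene, ran from 0.727 to 174 CPM in BXD (median 7.24) and from 40.2 to 200 CPM in AXB/BXA (median 100.8). Below the AXB/BXA minimum were 33 BXD strains, and DBA/2J had 1.04 CPM. The log2 difference was -1.45 (SE 0.47, edgeR adjusted p = 0.0321), and the call was lost without BXA16 (adjusted p = 0.0505) and with near-copies counted once. Mme, which encodes the peptidase neprilysin, differed by -1.39, the aldehyde oxidase gene Aox3 by -1.15 and the keratin gene Krt23 by -2.34 (-1.14 and not called with AXB strains only). Antxr2, an anthrax toxin receptor, and the focal adhesion gene Pxn differed by -0.67 and -0.37, with 24 and 19 BXD strains below the AXB/BXA minimum. Mup15, picked because its BXD median of 0 CPM was below the 0.652 CPM of AXB/BXA, had a fitted difference of 2.59 in the other direction, since 9 BXD strains exceeded the AXB/BXA maximum and 1 reached 231 CPM. Its call was lost in 20 of the 75 fits that left out 1 strain, with the highest adjusted p without BXD19 (0.202 by edgeR), and reads of this multigene family can be shared between copies.

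**Figure D1:**
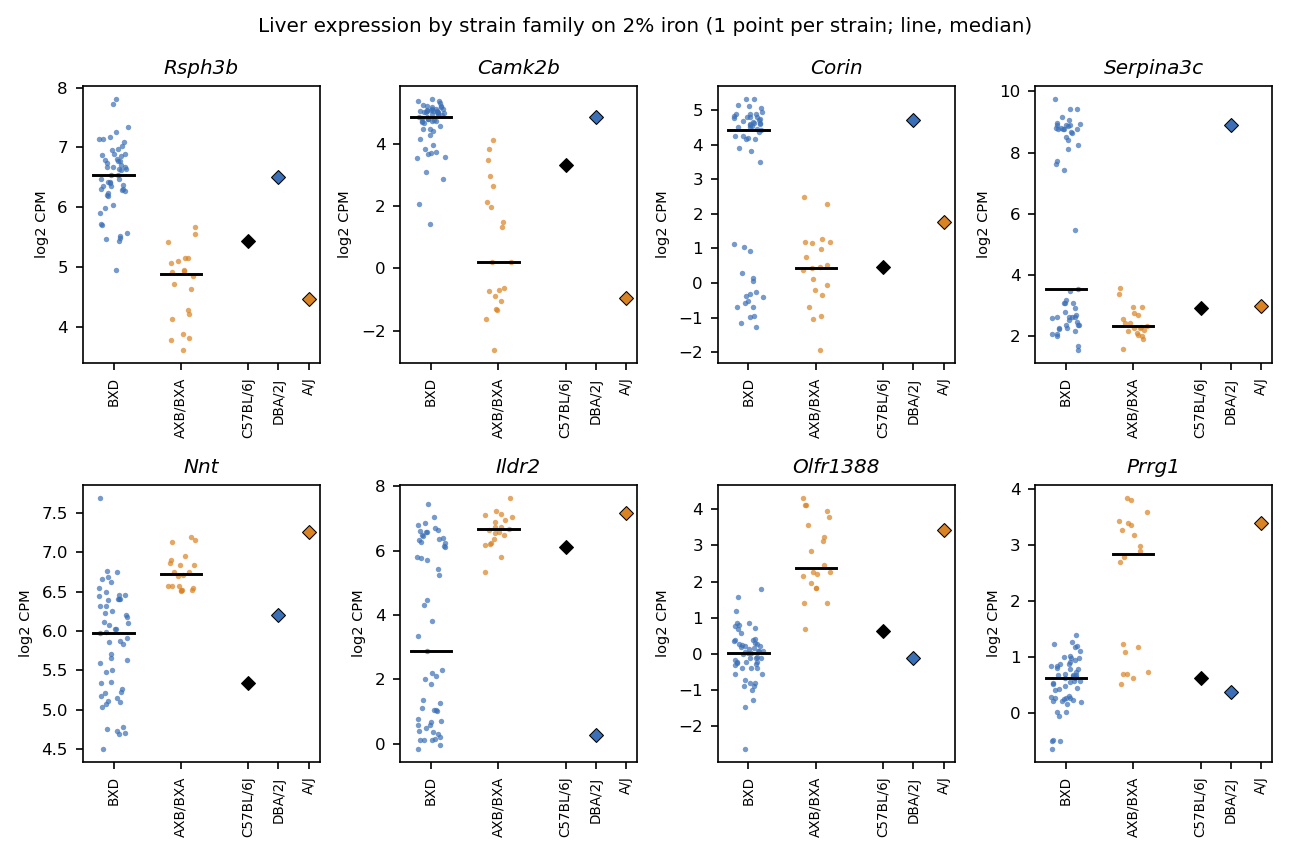
Log2 CPM (vertical axis, prior count of 2) of 8 genes in 55 BXD and 20 AXB/BXA strains, 1 point per strain with the family median as a line, and the single mice of C57BL/6J, DBA/2J and A/J as diamonds. Corin, Serpina3c and Ildr2 spread over separate high and low levels among BXD strains, whereas most BXD strains lie above AXB/BXA for Rsph3b and Camk2b and below for Olfr1388.

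The parental mice were not part of the fit and give a separate view of the same genes, with 1 mouse per strain and no test. In 1351 of 1592 called genes with a parental difference, 84.9% (Wilson 95% interval 83.0% to 86.5%), DBA/2J and A/J differed in the direction of the families. The share was 56.3% of genes not called and 59.6% of all genes tested. Among called genes that differed over 2-fold between families it was 89.7%, 182 of 203. These intervals treat genes as independent, which neighbouring genes are not. Across the 1592 called genes, which share the same few libraries, the family difference rose by 0.56 per unit of parental log2 difference (Pearson's r 0.768). C57BL/6J was nearer to DBA/2J in 87 of the 204 genes over 2-fold and nearer to A/J in 117. The A/J mouse stood apart in part: its hepatocyte genes summed to 170682 CPM, above all 75 libraries compared. Over all 13789 genes tested DBA/2J exceeded A/J in 6674. Of genes known to be higher in male liver, 13 of 13 were lower in A/J than in DBA/2J (median log2 difference, DBA/2J minus A/J, 3.20), and of those known to be higher in female liver 13 of 15 were higher (-3.64). The part of this in the parental differences was not tested.

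**Figure D2:**
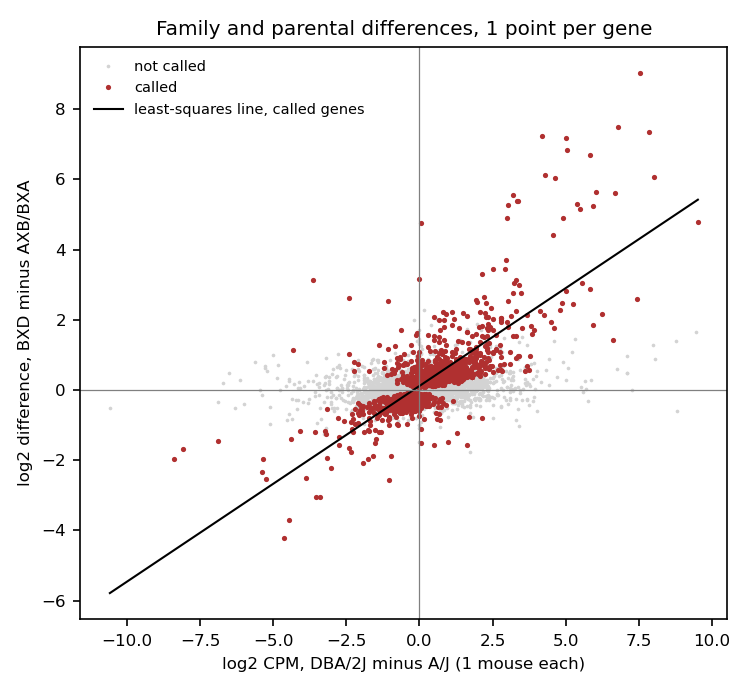
Log2 difference between families (vertical axis) against the log2 CPM difference between the single DBA/2J and A/J mice (horizontal axis), 1 point per gene tested, with called genes in red and the least-squares line of called genes. Most called genes lie in the lower left and upper right, 84.9% having the same sign on both axes.

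Iron and heme genes were called at about the same share as all genes. Of 66 genes of hepcidin regulation, iron handling and heme metabolism, 8 were called (12.1%, against 11.6% of all genes tested), 5 higher in BXD and 3 lower, and Hamp2, Steap2 and Slc39a8 were the 3 stable calls. Without BXA4 or BXA8 the count was 5, and with the mouse number as covariate or all panel libraries in the fit it was 4. The median log2 difference of the 66 was 0.00 and that of all genes 0.01. Hamp, which encodes hepcidin, ran from 539 to 1358 CPM in BXD (median 837) and from 665 to 1164 CPM in AXB/BXA (median 941). Its log2 difference was -0.16 (95% interval -0.32 to -0.01, edgeR adjusted p = 0.187) and was not called, and 15 BXD strains lay below the lowest AXB/BXA strain. DBA/2J, at 237 CPM, lay below every BXD strain, with C57BL/6J at 820.3 and A/J at 919.5 CPM.

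Hamp2, the neighbouring paralog (chromosome 7, 30922372 to 30924681), carried the largest difference of the iron genes. It ran from 65.1 to 3131 CPM in BXD (median 282) and from 51.1 to 249 CPM in AXB/BXA (median 151). Above the AXB/BXA maximum were 32 BXD strains, 22 of them over 1000 CPM, while the others overlapped with AXB/BXA. The log2 difference was 2.76 (SE 0.47, edgeR adjusted p = 1.46e-05), a stable call. The single DBA/2J mouse had 1039 CPM, against 112.8 in C57BL/6J and 112.4 in A/J. Hamp and Hamp2 are near-identical in part, so their reads may be split between them, and whether this entered either value was not tested.

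Of the other members of the hepcidin pathway, 1 of 19 was called, against 11.6% of all genes tested. The BMP co-receptor hemojuvelin, Hjv, had a median of 91.4 CPM over BXD strains, against 76.8 CPM over the other family, and a log2 difference of 0.19 (SE 0.07, edgeR adjusted p = 0.0458) that was lost in 32 of the 75 fits that left out 1 strain. Bmp6, the ligand that signals liver iron, had medians of 23.9 and 25.4 CPM in BXD and AXB/BXA. Its log2 difference was -0.15 (95% interval -0.37 to 0.07, edgeR adjusted p = 0.434). The SMAD target Id1 had medians of 32.7 and 29.2 CPM and a log2 difference of 0.05 (edgeR adjusted p = 0.843).

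Among iron transporters, the zinc and iron importer gene Slc39a8 was lower in BXD. It ran from 17.6 to 40.4 CPM in BXD (median 26.6) and from 23.5 to 48.9 CPM in AXB/BXA (median 31.4), a log2 difference of -0.33 (SE 0.07, edgeR adjusted p = 5.28e-04). The metalloreductase gene Steap2 was higher, with medians of 15.6 and 11.5 CPM and a log2 difference of 0.49 (SE 0.14, edgeR adjusted p = 0.00996). Both calls were stable, although the groups overlapped in each gene. The siderophore-binding Lcn2 ran from 6.66 to 3109 CPM in BXD (median 72.6) and from 12.2 to 338.4 CPM in AXB/BXA (median 32.4), with 7 BXD strains above the AXB/BXA maximum. Its log2 difference was 1.57 (SE 0.51, edgeR adjusted p = 0.0316), a call that 5 of the 10 other whole-family settings did not make. With the mouse number as covariate it was 0.66. The ferritin subunit genes were not called. Fth1 had medians of 892 and 886 CPM and a log2 difference of 0.02 (95% interval -0.09 to 0.13), and Ftl1 medians of 4461 and 4590 CPM and a difference of -0.03 (95% interval -0.15 to 0.10). Tfrc, the transferrin receptor, differed by 0.65 (edgeR adjusted p = 0.0707), and the ferroportin gene Slc40a1 by 0.07 (edgeR adjusted p = 0.639).

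In heme metabolism, 2 of 17 genes were called (11.8%, against 11.6% of all genes tested). Hmox2, the constitutive heme oxygenase, was higher in BXD by 0.22 (SE 0.05, edgeR adjusted p = 0.00283), and the porphyrin transporter gene Abcb6 was lower by -0.17 (SE 0.06, edgeR adjusted p = 0.0334). Nfs1, the cysteine desulfurase of iron-sulfur cluster assembly, was lower by -0.11 (SE 0.04, edgeR adjusted p = 0.0368). None of these 3 calls was stable. The inducible Hmox1 differed by 0.47 (edgeR adjusted p = 0.0833). Alad, the second enzyme of heme synthesis, ran from 31.9 to 192 CPM in BXD (median 78.4) and from 53.5 to 213 CPM in AXB/BXA (median 112.3), with a difference of -0.23 (95% interval -0.59 to 0.12, edgeR adjusted p = 0.447). With BXD Ty strains only Alad was called, at -0.60 (edgeR adjusted p = 0.0492), and with Rww strains only it was at 0.05. Of the 8 heme synthesis genes 0 were called with both whole families by edgeR, DESeq2 or limma. An unadjusted p under 0.05 was found for 3 (Urod, Uros and Ppox), against 3445 of all 13789 genes. All 8 had log2 differences below 0, against 6549 of all 13789 genes.

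**Figure D3:**
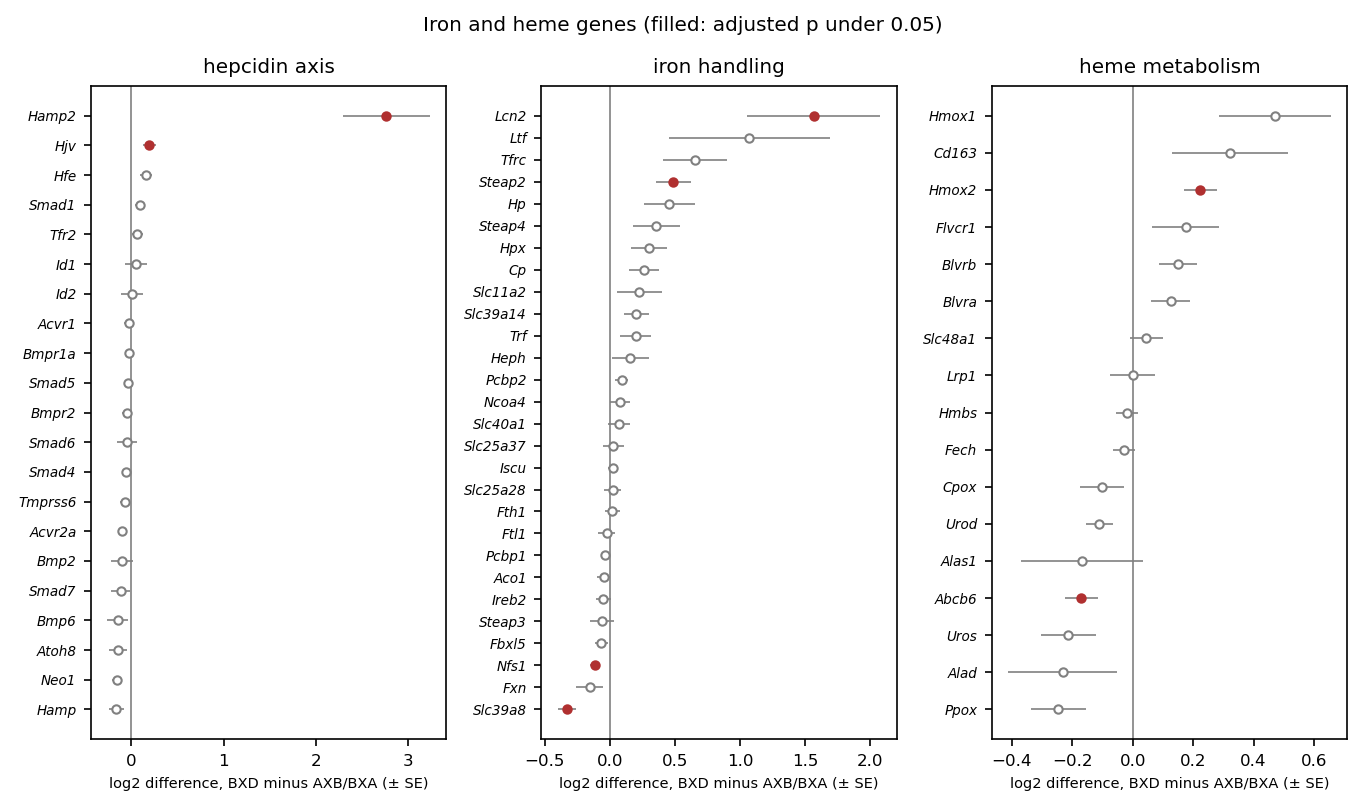
Log2 difference between BXD and AXB/BXA with its SE (horizontal axes, on separate scales) for 21 genes of the hepcidin axis, 28 of iron handling and 17 of heme metabolism. Filled points are the 8 called genes, of which Hamp2 at 2.76 and Lcn2 at 1.57 are the farthest from 0.

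Genes of cholesterol synthesis were called on the higher side in BXD. Of 21 genes, 10 were called (47.6%, against 11.6% of all genes tested), and 10 of these 10 were higher in BXD (6.56% of all genes). The median log2 difference of the list was 0.43, and 18 of the 21 had values above 0, against 7240 of all 13789 genes. In the parental mice, which the fit did not use, DBA/2J exceeded A/J in 21 of 21, with a median log2 difference of 2.04. Over all 13789 genes DBA/2J exceeded A/J in 6674. The A/J mouse, which stood apart as described above, had less Sqle than any AXB/BXA strain. Stable calls were Sqle, Insig1, Mvd and Fdft1, and the other 6 called genes were each lost in at least 2 of the 10 whole-family settings. With the mouse number as covariate or all panel libraries in the fit 5 were called. The fits of single strain sets, which have fewer strains and do not enter the term stable, called 0 with AXB only, 3 with BXA only and 4 with Rww only. Sterol-responsive genes are known to be activated together by SREBP2 when membrane cholesterol falls.

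Sqle, squalene epoxidase, ran from 18.03 to 258 CPM in BXD (median 117) and from 20.8 to 155 CPM in AXB/BXA (median 59.8), a difference of 0.96 (SE 0.21, edgeR adjusted p = 5.67e-04). The BXD median was the higher, but most BXD strains lay inside the AXB/BXA range, and 13 lay above its maximum. DBA/2J had 201 CPM of Sqle, C57BL/6J 133 and A/J 18.8. Insig1, the sterol-sensing retention protein, had medians of 311 and 204 CPM and a difference of 0.66 (SE 0.15, edgeR adjusted p = 0.00102).

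Mvd, mevalonate diphosphate decarboxylase, had medians of 13.4 (BXD) and 5.54 CPM (AXB/BXA) and a difference of 0.98 (SE 0.25, edgeR adjusted p = 0.00490). Msmo1, which demethylates sterols, had medians of 138 and 88.7 CPM and a difference of 0.74 (SE 0.21, edgeR adjusted p = 0.0128). The remaining calls were Lss at 0.54, Fdps at 0.54, Fdft1 at 0.53, Dhcr7 at 0.39, Hsd17b7 at 0.38 and the regulator Srebf2 at 0.24. Hmgcs1, which encodes the synthase early in the pathway, was not called, at 0.54 (edgeR adjusted p = 0.115). Bile acid synthesis and transport, which uses the product of the pathway, had 1 of 18 genes called (5.56%, against 11.6% of all genes tested). This was the uptake transporter Slco1b2 at -0.32 (edgeR adjusted p = 0.0294), a call that was not stable.

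Promoter windows were available from RefSeq (GRCm38.p6) for 16 of the 21 cholesterol genes. They were searched on both strands, from 250 bases before to 50 after each start, for a sterol regulatory element, TCACNCCAC, and for the box CCAAT, which lies beside such elements in known SREBP targets. The box was present in windows of 16 of the 16 genes, against 41.1% of 27025 genes. The sterol element was found in 1 of the 16, Hmgcs1, against 1.44% of all genes. The 250 bases before the start are printed for 2 called genes and for Hmgcs1, 5′ to 3′ on the coding strand, because these genes moved or carry the element. Capitals mark matches to either motif on either strand (ATTGG is CCAAT on the other strand).
Mvd: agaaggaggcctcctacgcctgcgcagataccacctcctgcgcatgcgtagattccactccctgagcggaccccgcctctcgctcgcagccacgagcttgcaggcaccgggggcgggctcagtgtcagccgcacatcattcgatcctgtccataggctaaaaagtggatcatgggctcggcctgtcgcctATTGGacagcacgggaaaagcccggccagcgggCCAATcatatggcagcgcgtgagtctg
Msmo1: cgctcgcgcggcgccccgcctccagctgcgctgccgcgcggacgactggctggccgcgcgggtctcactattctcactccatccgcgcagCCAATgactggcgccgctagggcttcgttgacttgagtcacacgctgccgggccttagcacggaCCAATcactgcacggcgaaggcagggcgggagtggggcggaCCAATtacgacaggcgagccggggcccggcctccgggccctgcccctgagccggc
Hmgcs1: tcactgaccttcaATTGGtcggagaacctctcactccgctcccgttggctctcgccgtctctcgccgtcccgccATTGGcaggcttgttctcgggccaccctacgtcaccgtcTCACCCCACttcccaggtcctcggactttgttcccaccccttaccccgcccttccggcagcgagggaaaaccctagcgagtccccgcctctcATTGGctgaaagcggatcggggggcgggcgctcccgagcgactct
The windows are chr8:122443423-122443672 on the minus strand for Mvd, chr8:64733579-64733828 on the minus strand for Msmo1 and chr13:119690101-119690350 on the plus strand for Hmgcs1. These are reference sequences, so strain variants are not shown, and a match is a description of the letters only.

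Acute phase genes, which hepatocytes raise under IL-6 and related signals, were also called on the higher side. Of 19 genes, 9 were called (47.4%, against 11.6% of all genes tested), 9 of them higher in BXD (6.56% of all genes), with a list median of 0.54. With the mouse number as covariate 3 were called, and with all panel libraries in the fit 5. The stable calls were Orm3, Socs3 and Itih3. Orm3, an orosomucoid gene, ran from 0.832 to 64.7 CPM in BXD (median 7.22) and from 0.236 to 4.09 CPM in AXB/BXA (median 2.13), and 38 BXD strains exceeded the AXB/BXA maximum. Its difference was 2.16 (SE 0.37, edgeR adjusted p = 1.56e-05). Socs3, the feedback inhibitor of IL-6 signalling, ran from 2.40 to 31.3 CPM in BXD (median 12.2) and from 4.82 to 21.4 CPM in AXB/BXA (median 6.89), a difference of 0.78 (SE 0.20, edgeR adjusted p = 0.00455). With Rww strains only Socs3 was at 0.51 and not called. Itih3 had medians of 1619 and 1218 CPM and a difference of 0.54 (SE 0.13, edgeR adjusted p = 0.00348).

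The other 6 acute phase calls were not stable. Saa2, a serum amyloid A gene, had medians of 15.8 (BXD) and 10.7 CPM (AXB/BXA) but maxima of 3733 and 314 CPM, and its difference of 2.20 (SE 0.75, edgeR adjusted p = 0.0408) was lost in 21 of the 75 fits that left out 1 strain and was 0.35 with the mouse number as covariate. Orm2 differed by 2.07, Orm1 by 0.78 and Serpina3n by 0.52. The metallothionein genes Mt1 and Mt2 differed by 0.80 and 0.88, with 15 and 16 BXD strains above the AXB/BXA maximum. With Rww strains only Mt1 and Mt2 were at 0.47 and 0.46 and not called, and the Mt2 call was lost in 24 of the 75 fits that left out 1 strain. Reads of the Orm, Saa and Mt paralogs can be shared. Complement had 0 of 29 genes called by edgeR and DESeq2, 2 by limma and 7 at an unadjusted p under 0.05. Over all 13789 genes the shares were 11.6% by edgeR, 12.7% by DESeq2 and 6.56% by limma, and 3445 reached that unadjusted p. Coagulation had 7 of 19 called (36.8%, against 11.6% of all genes tested), 5 higher and 2 lower, and the difference between these lists was not tested. The kininogen genes Kng1 and Kng2 were higher by 0.31 and 0.28 and F10 by 0.20, all stable, while F5 and Serpinc1 were lower by -0.20 and -0.14, calls that were not stable.

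Markers of blood cells are given beside these genes. The summed level of 8 erythroid genes ran from 3.79 to 1811 CPM in BXD (median 282) and from 4.59 to 743 CPM in AXB/BXA (median 118). Of 6 tested, 2 were called (33.3%, against 11.6% of all genes tested), Hba-a2 (1.95) and Slc4a1 (2.09). The 10 neutrophil genes summed to 2.00 to 167 CPM in BXD (median 9.60) and 2.38 to 68.8 CPM in AXB/BXA (median 5.48). Of 6 tested, 1 was called (16.7%, against 11.6% of all genes tested), Cxcr2 at 0.51. The calls of Hba-a2, Slc4a1 and Cxcr2 were not stable. For the 10 lymphocyte genes the median sum was 6.99 CPM over BXD strains and 7.94 CPM over the other family, and of 7 tested 0 were called by edgeR, DESeq2 or limma and 1 had an unadjusted p under 0.05. Ly6g, which defines neutrophils, was at 0 in 36 of 55 BXD and 14 of 20 AXB/BXA libraries. The part of these cells in the acute phase and Lcn2 differences was not tested. In bulk tissue, more cells of a type cannot be told apart from more RNA per cell.

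Serpin genes, which encode protease inhibitors, included members at separate high and low levels among BXD strains. Of 29 tested, 8 were called (27.6%, against 11.6% of all genes tested), all 8 higher in BXD (6.56% of all genes). The 8 lie in a cluster on chromosome 12 between 103980243 and 104414329. Serpina3c ran from 2.75 to 870 CPM in BXD (median 11.4) and from 2.82 to 11.7 CPM in AXB/BXA (median 4.85), with 27 BXD strains above the AXB/BXA maximum and 28 within or below its range. The difference was 5.25 (SE 0.79, edgeR adjusted p = 1.07e-06), and DBA/2J had 482 CPM, against 7.48 in C57BL/6J and 7.74 in A/J. Serpina11, at the edge of the cluster, ran from 43.5 to 414 CPM in BXD (median 124) and from 36.95 to 95.7 CPM in AXB/BXA (median 60.6), with 30 BXD strains above the maximum. Serpina3f, Serpina3h and Serpina3i differed by 2.08, 2.52 and 2.11, and Serpina3m by 0.51. Serpina3 genes are close paralogs, so the level of each single member is uncertain.

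Of 26 PPARA targets and genes of fatty acid oxidation, 5 were called (19.2%, against 11.6% of all genes tested), 5 of them lower in BXD (5% of all genes). Log2 differences were below 0 in 22 of 26 (list median -0.21), against 6549 of all 13789 genes. In the parental mice DBA/2J exceeded A/J in 4 of the 26, against 6674 of all 13789 genes. The stable call was Acadvl, the very long-chain acyl-CoA dehydrogenase, which ran from 182 to 340.5 CPM in BXD (median 260) and from 243 to 343.5 CPM in AXB/BXA (median 309). Its difference was -0.23 (SE 0.05, edgeR adjusted p = 3.20e-04), and 21 BXD strains lay below the AXB/BXA minimum. The nuclear receptor gene Ppara differed by -0.26 (edgeR adjusted p = 0.0268), the fatty acid transporter Cd36 by -0.46 (0.0421), the omega-hydroxylase Cyp4a10 by -0.82 (0.0349) and Acadl by -0.22 (0.0216). None of these 4 calls was stable, and with AXB strains only Cd36 was at -0.12. De novo lipogenesis had 2 of 16 called (12.5%, near the share of all genes), Gpam at 0.36 and Dgat2 at -0.22, each lost in 4 of the 10 whole-family settings.

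**Figure D4:**
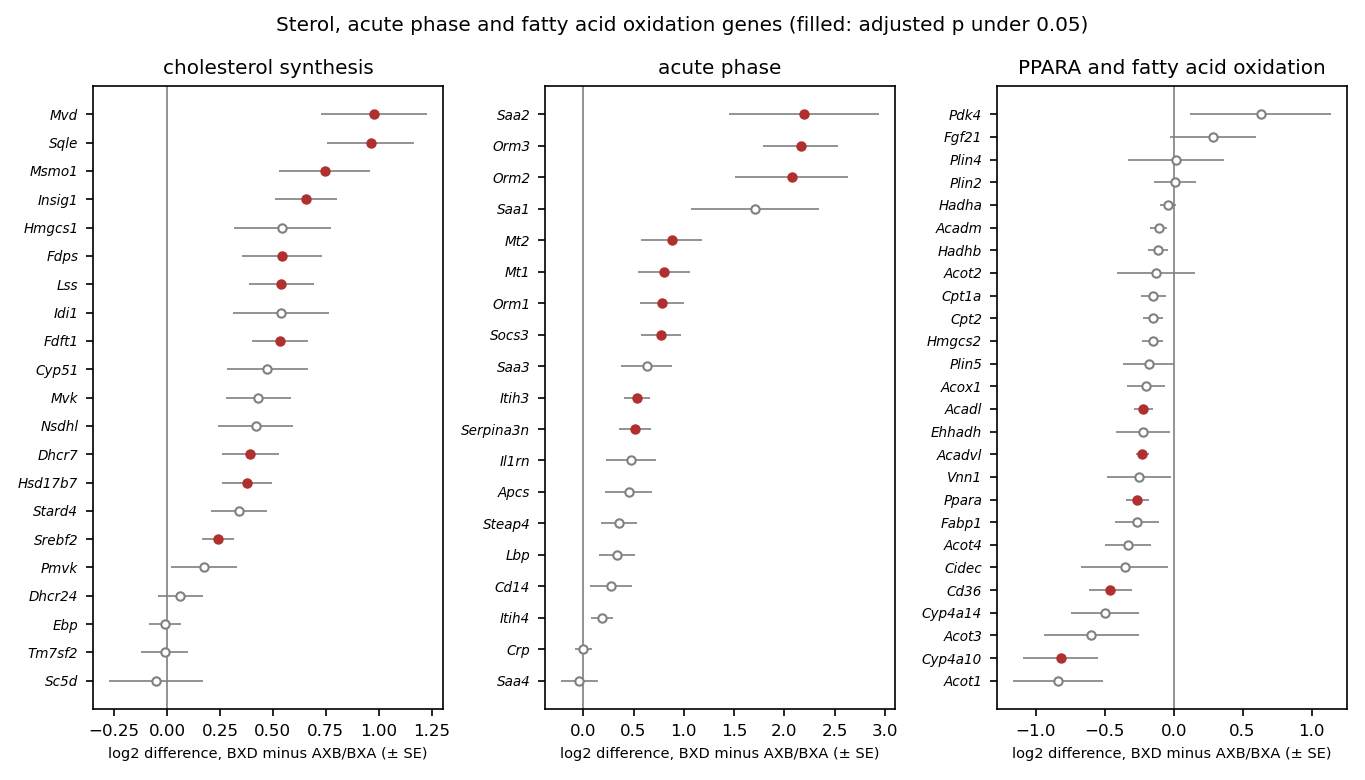
Log2 difference between BXD and AXB/BXA with its SE (horizontal axes, on separate scales) for 21 cholesterol synthesis genes, 19 acute phase genes and 26 genes of PPARA targets and fatty acid oxidation. The 10 and 9 filled points of the first and second panels lie above 0, and the 5 of the third lie below.

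Cytochrome P450 genes of families 1 to 4, which oxidise steroids, fatty acids and drugs, had 8 of 56 called (14.3%, against 11.6% of all genes tested), 7 lower in BXD and 1 higher. Without AXB19a or BXA16 the count was 5, and with all panel libraries in the fit it was 3. Cyp2e1, the ethanol-inducible form, ran from 1876 to 6515 CPM in BXD (median 4229) and from 2831 to 8769 CPM in AXB/BXA (median 5950). The difference was -0.47 (SE 0.10, edgeR adjusted p = 3.13e-04). It was not called in 1 of the 10 whole-family settings. Stable calls were Cyp3a25 at -0.40, Cyp3a44 at -1.96 and Cyp2a22 at -1.68. Cyp2a22 ran from 0.0690 to 243 CPM in BXD (median 28.7) and from 2.29 to 356 CPM in AXB/BXA (median 144), with A/J at 299.5 and DBA/2J at 0.947 CPM. The higher Cyp3a41a (2.26) had nearly equal medians of 1.25 and 1.19 CPM and had 8 BXD strains above the AXB/BXA maximum. It was at 0.76 with DESeq2 (adjusted p = 0.490), 0.81 with Ty strains only and 0.27 with limma on log2(TPM + 1), and the call was lost in 7 of the 10 whole-family settings and 17 of the 75 fits that left out 1 strain. Members of these families are close paralogs whose reads can be shared.

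Among antioxidant genes, 9 of 45 gene models were called (20%, against 11.6% of all genes tested), 7 lower in BXD and 2 higher. Nnt, the mitochondrial transhydrogenase that supplies NADPH and is known to carry a deletion in C57BL/6J, appears as a pair of overlapping gene models, both called and both counted. The more abundant model ran from 22.4 to 207.1 CPM in BXD (median 62.7) and from 91.2 to 147 CPM in AXB/BXA (median 106), with 48 of 55 BXD strains below the AXB/BXA minimum. Its difference was -0.77 (SE 0.15, edgeR adjusted p = 1.02e-04), with C57BL/6J at 40.2, DBA/2J at 73.3 and A/J at 152 CPM. All AXB/BXA strains lay above C57BL/6J, although it is also a parent of that family. The part of the deletion in the family difference was not tested. The other model differed by -0.51, and reads may be split between the models. Glutathione peroxidase Gpx1 was lower by -0.31 (SE 0.08, edgeR adjusted p = 0.00249), with medians of 624.2 and 802 CPM. Peroxiredoxin Prdx1 was lower by -0.18, and 31 BXD strains lay below the AXB/BXA minimum. The glutathione transferase genes Gsto1 and Gstk1 were lower by -0.35 and -0.19 and the glutathione synthesis subunit Gclm by -0.20, whereas Gstm5 and Mgst3 were both higher by 0.49. The calls of Prdx1, Gsto1, Gstk1 and Gclm were not stable.

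Interferon-response genes had 6 of 52 called (11.5%, near the share of all genes), of which 4 were guanylate-binding protein genes on chromosome 5 between 105077630 and 105346472. Gbp4 ran from 3.60 to 16.7 CPM in BXD (median 8.14) and from 5.78 to 56.2 CPM in AXB/BXA (median 15.9997), a difference of -1.001 (SE 0.13, edgeR adjusted p = 3.62e-08). Gbp9, Gbp10 and Gbp11 differed by -0.43, -1.57 and -1.11, and these genes overlap or resemble each other. Xaf1 was higher by 1.08 and Bst2 lower by -0.32, and neither these calls nor that of Gbp11 were stable. Class I genes of the major histocompatibility complex had 7 of 18 called (38.9%, against 11.6% of all genes tested), 5 higher and 2 lower, of which H2-Q6 and H2-T24 were stable. Class II had 0 of 10 called by edgeR (11.6% of all genes), DESeq2 (12.7%) or limma (6.56%). At an unadjusted p under 0.05 were 0 of the 10, against 3445 of all 13789 genes. H2-Q6 had medians of 62.9 and 34.2 CPM and a difference of 0.75 (SE 0.16, edgeR adjusted p = 5.28e-04). H2 haplotypes differ in sequence between strains, and the effect of that on counting against a reference was not tested.

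**Figure D5:**
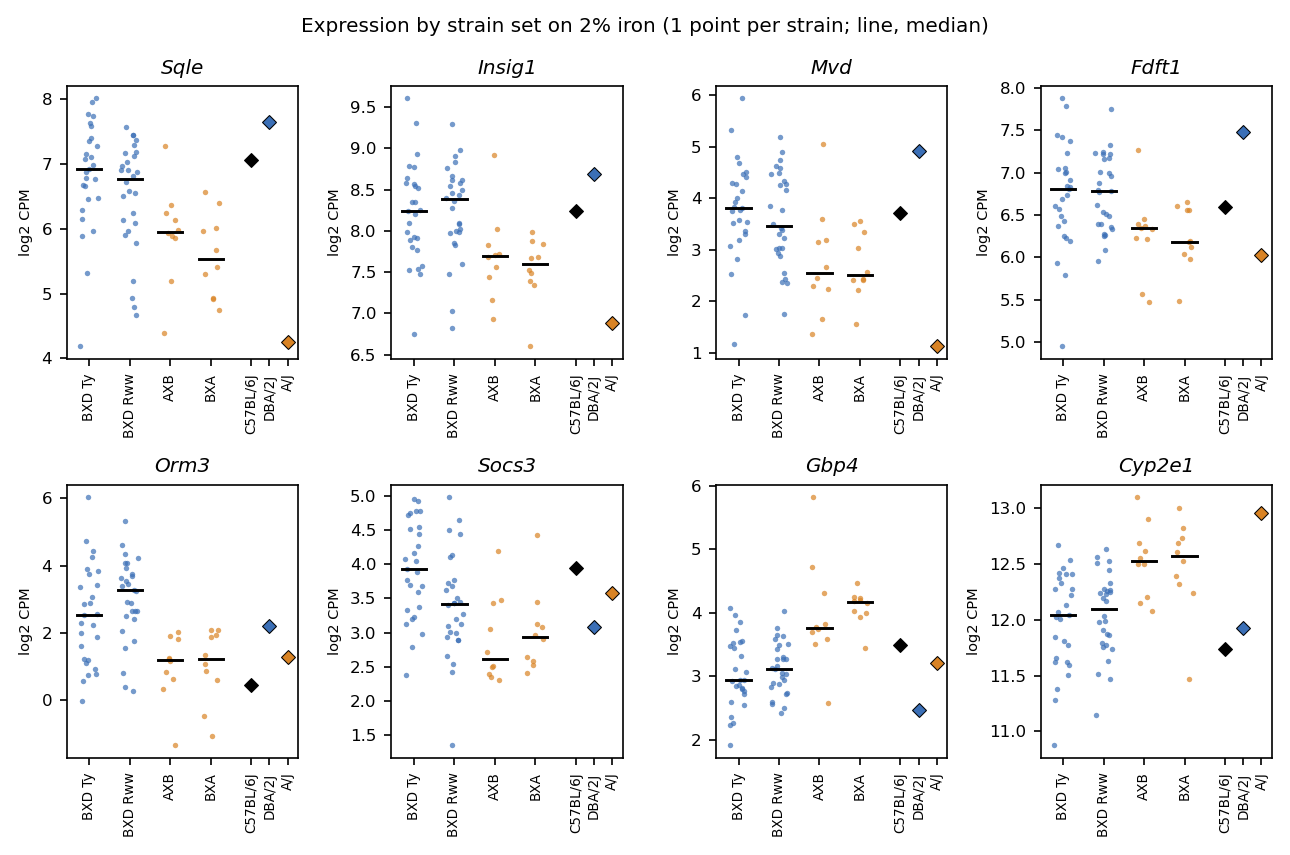
Log2 CPM (vertical axis, prior count of 2) of 8 genes in 27 BXD Ty, 28 BXD Rww, 10 AXB and 10 BXA strains, 1 point per strain with the median as a line, and the single parental mice as diamonds. For Sqle the medians are 121 and 109 CPM in the BXD sets and 61.7 and 46.6 CPM in the AXB and BXA sets, and for Cyp2e1 they are 4229 and 4399 against 5903 and 6081 CPM.

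Medians of the 4 strain sets are given for 3 of the genes with large differences. Camk2b had medians of 27.6 CPM in BXD Ty and 30.9 CPM in BXD Rww, against 0.454 CPM in AXB and 3.23 CPM in BXA. Hamp2 had 236 and 335 CPM in the BXD sets and 141.1 and 168.8 CPM in AXB and BXA. For Serpina3c, 15 of 27 Ty and 12 of 28 Rww strains lay above the AXB/BXA maximum. Because the BXD strains fall into high and low levels, the medians of 280 CPM in the Ty and 7.09 CPM in the Rww set lie on either side of the gap, against 5.09 and 4.70 CPM in AXB and BXA. The difference between BXD sets was not tested.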

How the data were processed

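Liver mRNA was sequenced from mice labelled male, 1 per strain in both families. The panel also holds 2 libraries of the strain 129X1/SvJ, which entered only the fit with all panel libraries. The authors deposited expected counts per gene, estimated from the reads and not normalized, and TPM for the same genes. The submitters' processing notes name kallisto 0.46 and mm10, with no parameters, and the strand setting is not given in the sources used here. Of the count values 27.4% were not whole, although the design had assumed counts, so they were rounded. Counts of strain alleles against a reference can differ, which was not tested.

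The families were compared with edgeR 4.0.16 (R 4.3.3; glmQLFit and glmQLFTest, TMM, filterByExpr, Benjamini-Hochberg adjustment, two-sided, no covariates), called at an adjusted p under 0.05. CPM were scaled with TMM factors over the panel, and log2 CPM used a prior count of 2. Symbols and coordinates came from GENCODE M21 (GRCm38, 35612 of 35711 identifiers matched), and promoter windows from RefSeq. Intervals of differences are 95%. Depth was 9.41 to 20.6 M counts (M, 1000000). On simulated data of 13789 genes, 87 of 100 genes changed 1.5-fold and 91 of 100 changed 2-fold were recovered, with 9 false calls among the unchanged genes. Counts were drawn independently with a single mean per gene and family. Near-copy strains, linked genes and genes at separate high and low levels were not simulated, so these rates may not hold for the real data.

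Named genes were the 10 called protein-coding genes with the largest difference of family medians in each direction (mean of at least 1 CPM in a family, no predicted names), the 5 in each direction by the share of strain pairs, called list members, and the iron and heme genes. Of the cholesterol synthesis list, 3 genes are not reported here and were left out of its counts after the values were seen. The members, lists and tests were chosen with earlier results of these data known. Alternatives were RLE factors, 2 other filters, DESeq2 1.42.0, limma 3.58.1 on log2(TPM + 1) and log2(TPM + 0.1), BXD65 kept, near-copies counted once, the mouse number in the label as a covariate, all panel libraries in 1 fit, and each strain set alone. Leaving out each strain was added after seeing the data. Python 3.11.15, numpy 2.4.6, scipy 1.17.1, pandas 2.3.3 and matplotlib 3.10.9 were used.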

Additional observations from a re-analysis of the deposited data

How the results depend on the processing

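In all 14 alternatives, every gene called both there and in the reported fit kept its direction. As a share of the genes tested, 11.6% were called (6.56% higher, 5% lower). With AXB strains only it was 4.43% (2.78% and 1.65%, 627 genes), with BXA strains only 3.45% (2.10% and 1.36%), with limma on log2(TPM + 1) 6.56% (4.14% and 2.42%, 905 genes) and on log2(TPM + 0.1) 6.69% (4.35% and 2.34%, 922 genes). The fits with fewer strains had fewer replicates, and the cause of the limma shares was not tested. The other alternatives gave 1105 to 1838 genes against 1593, or 6.9% (no filter) to 12.7% (DESeq2). Leaving out 1 strain gave 10.1% to 12.3%, with 5.79% to 6.81% higher and 4.26% to 5.51% lower.

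Of the list counts, iron and heme (8 as reported) fell to 4 with Rww strains only (8.83% of all genes called), BXA only, the mouse number as covariate (10.2%) or all panel libraries (7.78%), to 2 with AXB only and to 3 with either limma fit. Without 1 strain it ran from 5 to 12, with 5 without BXA4 or BXA8. Cholesterol synthesis (10) was 4 with Rww only, 0 with AXB only (edgeR; 7 of 21 at an unadjusted p under 0.05), 3 with BXA only, 5 with the covariate or all panel libraries and 6 with either limma fit, and 8 to 15 without 1 strain. Acute phase (9) was 3 with Rww only, 1 with AXB only, 2 with BXA only, 3 with the covariate and 5 with all panel libraries, and 7 to 9 without 1 strain. Cytochrome P450 (8) was 5 with at least 10 counts in every library, near-copies counted once, Rww only or the covariate, 1 with AXB only, 4 with BXA only and 3 with all panel libraries. It ran from 5 to 9 without 1 strain, with 5 without AXB19a or BXA16. The causes were not tested.

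Direction changed for genes that were not called: Alad was 0.047 with Rww only and 0.0011 with AXB only, Fth1 was -0.00641 and -0.036, and Ftl1 was 0.078 with BXA only. No paired analysis was possible because each strain is a separate mouse and no number is shared between the families. With 1 mouse per strain, variation between mice of a strain cannot be told apart from strain, and differences in genes near 0 counts are limited by depth.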

Other observations

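The called genes were spread over the autosomes and the X chromosome, and on the Y chromosome 1 of 9 genes was called (11.1%). The share called ran from 6.34% of genes on chromosome 19 to 16.3% on chromosome 5. The 13 mitochondrial genes gave 0 calls by edgeR, DESeq2 or limma (11.6%, 12.7% and 6.56% of all genes). At an unadjusted p under 0.05 were 2 of the 13, against 3445 of all 13789 genes. In windows of 5 Mb with at least 15 genes tested, the median share called was 10.7%, and 28 windows had none. The highest share was 9 of 20 genes on chromosome 5 between 70 and 75 Mb, 6 higher in BXD and 3 lower, and Corin is in that window. A window on chromosome 8 between 120 and 125 Mb held 24 called genes of 67, 15 higher and 9 lower, among them Mvd and the sulfotransferase gene Sult5a1. Neighbouring genes of a window are not independent.

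Cholangiocyte markers gave no uniform picture. Their sum had a median of 28.2 CPM over BXD strains and 39.96 CPM over AXB/BXA strains, most of it from Spp1 (osteopontin), which was lower in BXD by -0.56 (edgeR adjusted p = 0.00881) with 32 BXD strains below the AXB/BXA minimum. Sox9 was higher by 0.68 (edgeR adjusted p = 0.0136). Sinusoidal endothelium genes had 1 of 10 called (10%, against 11.6% of all genes tested), Fcgr2b, which was lower in BXD and not a stable call. Of these 10 genes, 9 had log2 differences below 0 (list median -0.18), against 6549 of all 13789 genes. Stellate cell genes had 0 of 14 called by edgeR, DESeq2 or limma and 0 at an unadjusted p under 0.05. Proliferation genes had 0 of 14 by edgeR, 1 by DESeq2 and 1 at an unadjusted p under 0.05. Circadian clock genes had 0 of 17 by edgeR, 1 each by DESeq2 and limma and 2 at an unadjusted p under 0.05. Over all 13789 genes the shares were 11.6% by edgeR, 12.7% by DESeq2 and 6.56% by limma, and 3445 reached that unadjusted p.

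Of 12 sulfotransferase genes 2 were called (16.7%, against 11.6% of all genes tested), Sult5a1 (1.09) and Sult3a1 (3.14), both higher in BXD. Of 18 UDP-glucuronosyltransferase genes (5.56%) Ugt3a1 (-0.75) was called and of 17 carboxylesterase genes (5.88%) Ces2a (-0.37), both lower. Of these 4 calls only that of Sult5a1 was stable. Genes known to be higher in female liver had 4 of 15 called (26.7%, against 11.6% of all genes tested), of which Sult3a1 and Cyp3a41a were higher in BXD and Cyp3a44 and A1bg lower. Only the Cyp3a44 call was stable, and Cyp3a41a was lost in 7 of the 10 whole-family settings and was at 0.76 with DESeq2. Those known to be higher in males had 0 of 13 called by edgeR (11.6% of all genes) and DESeq2 (12.7%) and 1 by limma (6.56%). At an unadjusted p under 0.05 was 1 of the 13, against 3445 of all 13789 genes. Sult3a1 had medians of 3.35 CPM over BXD strains and 3.58 CPM over AXB/BXA strains, while 18 BXD strains lay above the AXB/BXA maximum of 27.2 CPM.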
